A study of Homo sapiens with 42 samples.

Results

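The comparison set the mRNA change 4 h after 2 Gy of gamma radiation in H460 cells against the same change in H1299 cells. Both are human lung cancer lines, and the study calls H460 radiosensitive and H1299 radioresistant. The data were log2 intensities on 1-colour Affymetrix arrays, and the RNA (100 ng of total RNA per array) came from monolayers in exponential growth. Of the 42 arrays of the study, 18 entered the comparison: 6 of H460 and 6 of H1299 labelled 0 h, and 3 of each line at 4 h. The protocol speaks of control cells without irradiation kept for the same periods, and the labels do not say whether any of the 0 h arrays held such cells. The choice of baseline arrays mattered: the line difference was called for 1317 genes with 0 h replicates 1 to 3 alone and for 604 with replicates 4 to 6 alone, against 1572 with all. All 18404 genes with a symbol of their own were tested, each by the row with the highest mean. The line difference of a gene is its H460 change minus its H1299 change, in log2 units, so a positive value means that H460 rose more or fell less. Errors after ± are standard errors of the fit unless marked SD. No array is labelled unirradiated at 4 h, which means that hours after the dose and hours of further growth cannot be told apart. In these bulk samples fewer cells of a kind and less RNA per cell cannot be told apart either. Each condition was studied in a single cell line, so what differs between H460 and H1299 besides their names cannot be told apart.

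Ionizing radiation breaks DNA, and the kinase ATM signals the breaks to the transcription factor p53. Stabilised p53 switches on genes that stop the cell cycle, repair DNA, start cell death and, through the ubiquitin ligase MDM2, remove p53 again. H460 is known as a line with wild-type p53, whereas H1299 is known to lack p53 protein. Immediate-early genes and the feedback inhibitors of MAP kinase signalling form another layer of early response, whose transcripts turn over fast.

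Array distributions were of unequal width. The interquartile range of the genes ran from 3.14 to 3.63 on the H460 0 h arrays, from 3.29 to 3.39 at 4 h, from 3.24 to 3.69 on the H1299 0 h arrays and from 3.63 to 3.70 at 4 h. The part of this spread in the results was not tested beyond the counts given with it. Array medians were 6.08 to 6.10 in H460 at 0 h and 5.97 to 6.08 at 4 h, and 6.10 to 6.14 in H1299 at both times. Both lines had keratin transcripts, with KRT18 at means of 12.2 in H460 and 12.1 in H1299, while EPCAM and CDH1, which define many epithelia, were dim in both (4.0 or lower). Fibroblast collagens and leukocyte genes were low. PTPRC, the pan-leukocyte antigen, had a mean of 2.68 in H460 and 2.66 in H1299, and CD68, a lysosomal protein found in many cells, was the exception at 8.78 and 9.0. No member of the epithelial (12), fibroblast (10) or leukocyte (9) lists had a called change in either line or a called line difference (limma). At an unadjusted p under 0.05, 1 epithelial gene differed between the lines, and 1 fell in H460 and 2 in H1299. At that p, 1 fibroblast gene fell in H460, and 1 leukocyte gene rose in H460 and 1 fell in H1299. Of 10 mesenchymal genes, 1 had a called fall in H460 (10%, against 3.76% of all genes) and none a called line difference. That call was lost without H460 0 h replicate 1, 2 or 3 or 4 h replicate 1 or 3.

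At an adjusted p under 0.05, which is what called means below, 1572 genes (8.54%) differed between the lines in their 4 h change, 591 with a higher change in H460 and 981 with a lower one. In H460, whatever the call in H1299, 1243 genes were called (6.75%), 551 up (2.99%) and 692 down (3.76%). In H1299, whatever the call in H460, 1730 genes were called (9.40%), 1253 up (6.81%) and 477 down (2.59%). The median line difference of all genes was -0.02. The lines already differed at 0 h, with 11145 genes (60.6%) called, 5525 higher in H460 and 5620 lower (30.5%). The 4 h arrays lay wholly above the 0 h arrays for 509 genes in H460 (2.77%) and 2134 in H1299 (11.6%), and wholly below them for 736 (4%) and 1384 (7.52%). The balance of directions moved with the scaling of the arrays: 37.6% of the called line differences were higher in H460 with the deposited values, 49.3% after quantile normalization and 60.4% after centring each array on its median. In H460 the share of rises among called genes went from 44.3% to 55.1% and 77.1%. In H1299 it went from 72.4% to 61.4% after quantile normalization, 53.6% with array weights, 58.5% with array width as a covariate and 62.3% without 4 arrays of narrow spread (H460 2 h replicates 1 to 3 and H1299 0 h replicate 2), and up to 75.6% after median centring and 80% in a fit of the 18 arrays alone. Of the 4 arrays of narrow spread, only H1299 0 h replicate 2 (interquartile range 3.24) belonged to the comparison. H460 0 h replicates 2 and 5 were narrower (3.22 and 3.14) and were kept in that setting. Counts also moved with single arrays. The line difference was called for 931 genes without H460 4 h replicate 2. It was called for 964, 1018 and 1043 without H1299 4 h replicates 1, 2 and 3. The H460 count was 775, 736 and 509 without H460 0 h replicate 1 and 4 h replicates 1 and 3, and the H1299 count 870, 997 and 991 without its 4 h replicates 1, 2 and 3.

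The calls were then sorted by line. Among called line differences, 377 genes (2.05% of those tested) were called in H460 and not in H1299, 205 up and 172 down. Another 813 (4.42%) were called in H1299 and not in H460, 628 up and 185 down. A further 50 (0.272%) were called in both lines in opposite directions, 7 were called the same way in both by unequal amounts, and 325 differed between the lines without a call in either. A shared change, called the same way in both lines without a called difference, was found for 76 genes (0.413%), 48 up and 28 down. A missed call is not an absent change. The 95% interval of the change in the other line lay within a 1.5-fold change for 353 of the 377 genes called in H460. It did so for 767 of the 813 called in H1299, and that of the line difference for 63 of the 76 shared genes. In the other line, 93 of the 377 and 94 of the 813 had means below 5.59 at both times. The dimmest 33.3% of genes exceeded that level in no group, so a narrow interval there need not show an unchanged transcript. A further 733 genes were called in H460 alone and 784 in H1299 alone without a called line difference, so the data assign them to neither group. Leaving out H460 4 h replicate 3 left 184 genes called in H460 only, and leaving out 0 h replicate 1 of that line left 235. Without H460 4 h replicate 2 the count in H1299 only was 454, and without H1299 4 h replicates 1, 2 and 3 it was 427, 474 and 481. Opposite changes numbered 17, 21 and 22 without those same 3 H1299 arrays and 25 and 23 without H460 4 h replicates 2 and 3. Changes of the same direction and unequal size numbered 3 without any H1299 4 h array and 4 without H460 4 h replicate 2 or 3. Shared changes numbered 47 and 45 without H1299 4 h replicates 1 and 3 and 48 without H460 4 h replicate 3.

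**Figure D1:**
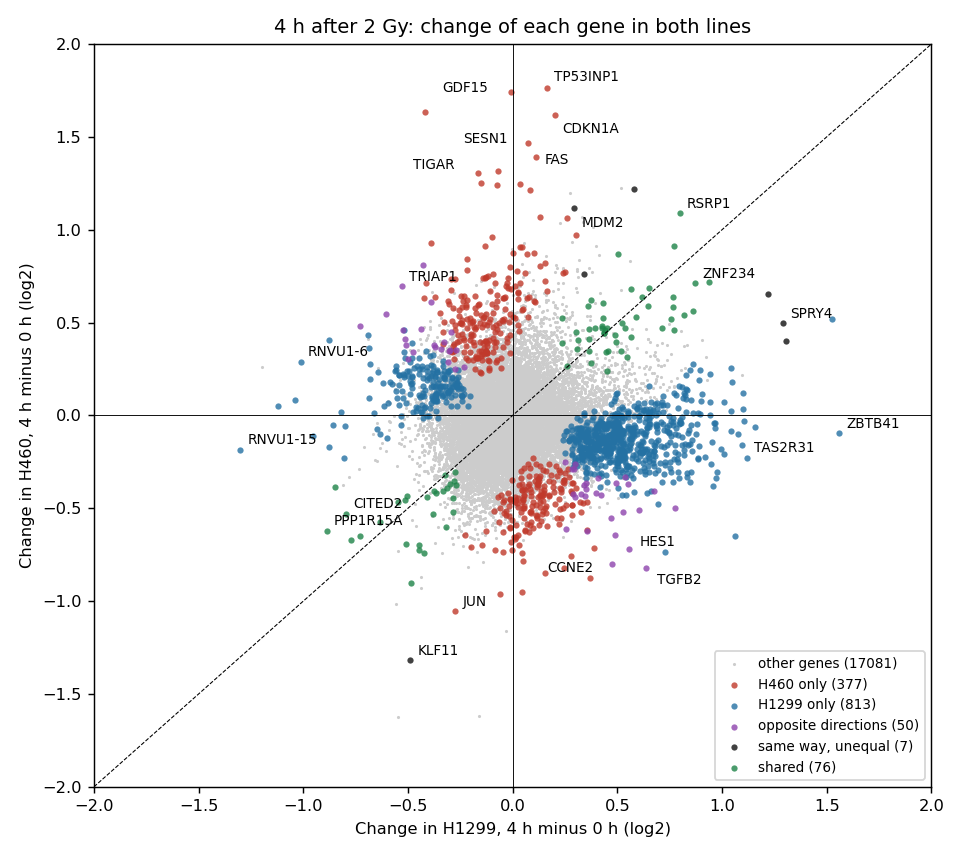
Change of each of the 18404 genes at 4 h in H1299 (horizontal, log2) and in H460 (vertical, log2), coloured by the group of its calls. The dashed line marks equal change, and the p53 targets CDKN1A, GDF15, TP53INP1 and FAS stand near the vertical axis while the 813 genes called in H1299 only spread along the horizontal one.

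Among the p53 target genes, most called changes were rises in H460. Of 65 measured targets, 34 rose in H460 (52.3%, against 2.99% of all genes) and 0 fell (limma). At an unadjusted p under 0.05, 42 rose there and 4 fell. In H1299, 6 rose (9.23%, against 6.81%) and 4 fell (6.15%, against 2.59%), so the rises there were near the share of all genes. The line difference was called higher in H460 for 27 of 65 (41.5%, against 3.21% of all genes) and lower for MDM4 alone, and its median was 0.40 against -0.02 over all genes. The list was chosen with the response of these cells known, so its direction is a description. The 27 stayed between 25 and 30 when any 1 of the 18 arrays was left out, and between 23 and 36 under the other settings. The 6 rises in H1299 did not: without H1299 4 h replicates 1, 2 and 3 they numbered 1, 1 and 2.

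Among the arrest genes, 6 of 9 had a higher change in H460 (66.7%, against 3.21% of all genes). CDKN1A encodes the cyclin-dependent kinase inhibitor p21. Its level in H460 was 7.16 to 7.49 (median 7.38) on the 0 h arrays, and 9.01, 9.41 and 8.52 on the 4 h arrays. In H1299 it was 6.75 to 6.99 (median 6.87) at 0 h, and 7.13, 7.08 and 7.02 at 4 h. The 4 h arrays lay above the 0 h arrays in both lines, by a wider gap in H460. The change was 1.62 ± 0.10 in H460, a 3.07-fold rise, and 0.20 ± 0.10 in H1299 (adjusted p = 0.24), with a line difference of 1.41 ± 0.15 (adjusted p = 2.4e-08). The H1299 change was called with array weights alone among the other settings. GADD45A, a stress-induced growth arrest protein, went opposite ways: it rose by 0.61 ± 0.08 in H460 and changed by -0.39 ± 0.08 in H1299, with both sets of 4 h arrays clear of the 0 h arrays. PRDM1, PLK3 and ZMAT3 rose in H460 by 0.91, 0.97 and 0.90. PLK2, a stress-responsive kinase, got its line difference of 0.96 ± 0.16 mainly from H1299, where it changed by -0.68 ± 0.11.

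The feedback genes act on p53 itself. MDM2 rose in both lines, unequally. In H460 it was 9.60 to 10.13 (median 9.75) at 0 h and 10.91, 10.88 and 10.93 at 4 h, and in H1299 9.03 to 9.32 (median 9.13) and then 9.51, 9.41 and 9.39. The arrays of the 2 times did not overlap in either line. The change was 1.12 ± 0.09 in H460 and 0.30 ± 0.09 in H1299, and the line difference was 0.82 ± 0.12 (adjusted p = 3.2e-05). The smaller H1299 rise (adjusted p = 0.023) was not called without any 1 of the 3 H1299 4 h arrays. TP53INP1, a nuclear co-factor of p53 in stress, rose by 1.76 ± 0.10 in H460, the largest rise named here, and PPM1D, the phosphatase that switches the damage signal off, by 0.77 ± 0.08; their H1299 changes of 0.16 and 0.06 had intervals within a 1.5-fold change. TRIAP1, a small anti-apoptotic protein, rose by 0.70 ± 0.11 in H460 and changed by -0.53 ± 0.11 in H1299. MDM4, an inhibitor of p53, rose in H1299 by 0.53 ± 0.14 and in H460 changed by -0.15; its line difference of -0.67 was not called without H460 0 h replicate 1, H460 4 h replicate 2 or H1299 4 h replicate 1 or 2, and its H1299 rise not without either of the last.

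**Figure D2:**
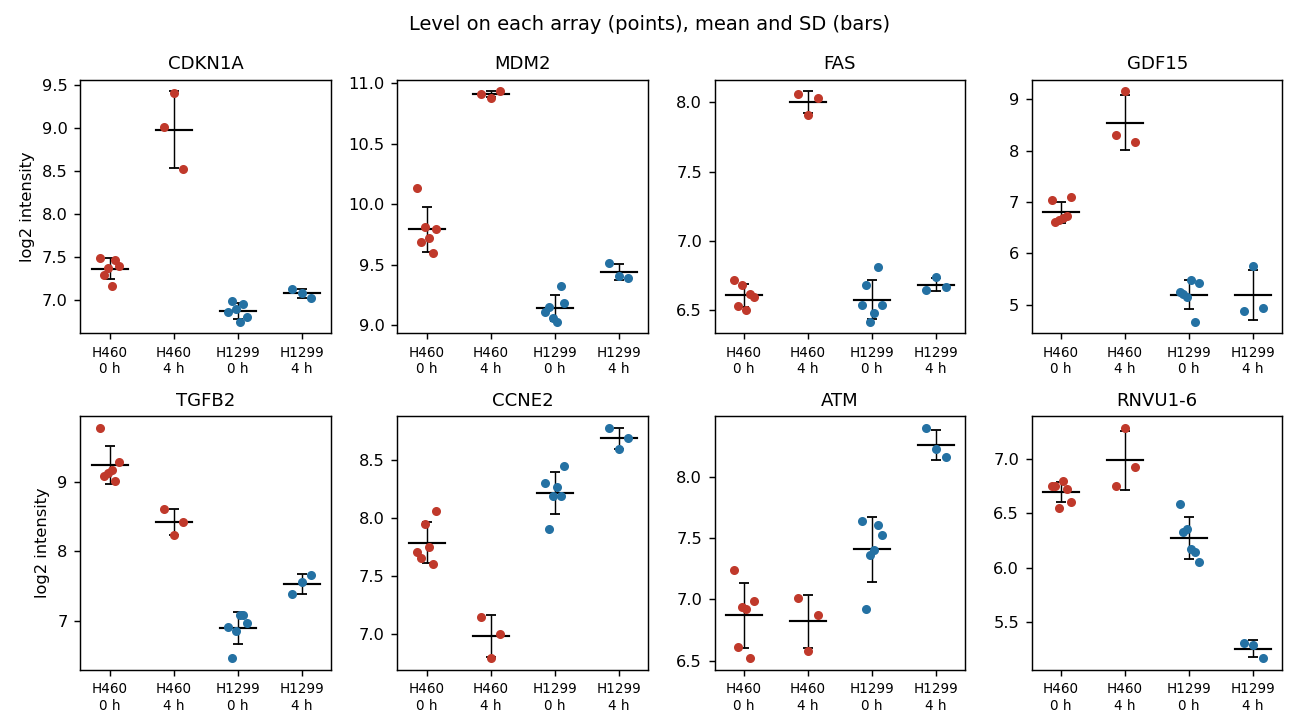
Level (log2 intensity) on every array for 8 genes, with the mean and SD of each group of 6 (0 h) or 3 (4 h) arrays. CDKN1A, FAS and GDF15 rise in H460 without a called H1299 change, and MDM2 rises in both lines, more in H460. TGFB2 and CCNE2 move in opposite directions, ATM rises in H1299 and RNVU1-6 falls there.

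Of the 18 death genes, 9 rose in H460 (50%, against 2.99% of all genes) and 5 had a higher line difference (27.8%, against 3.21%). FAS is the death receptor for FAS ligand. Its 0 h levels were alike in both lines, 6.50 to 6.72 (median 6.61) in H460 and 6.42 to 6.81 (median 6.54) in H1299, and at 4 h they were 8.06, 7.91 and 8.03 in H460 and 6.65, 6.74 and 6.67 in H1299. The H460 arrays separated completely and the H1299 arrays overlapped. FAS rose 2.63-fold in H460, with a line difference of 1.28 ± 0.12 (adjusted p = 7.7e-10). EDA2R, a receptor of the same superfamily, rose by 1.06 ± 0.15 in H460, and TP53I3 and PHLDA3 rose by 0.49 and 0.71, PHLDA3 with a line difference that was not called without H460 4 h replicate 2 (which also ended its H460 call) or H1299 4 h replicate 1 or 3. The changes of 2 classic death genes in H460 were not called: that of BAX was 0.22 (95% interval 0.01 to 0.43, adjusted p = 0.19) and that of BBC3, which encodes PUMA, -0.25 (-0.49 to -0.0036, adjusted p = 0.22). The TRAIL receptor gene TNFRSF10B rose in H460 by 0.52 ± 0.08 and in H1299 by 0.23 ± 0.08, without a called difference (0.29 ± 0.11, adjusted p = 0.082). Its H1299 call was lost without any 1 of 6 H1299 arrays, 0 h replicates 2, 3 and 5 and each 4 h array. ACTA2, smooth muscle actin, lies next to FAS on chromosome 10 and overlaps it in the RefSeq annotation of GRCh38.p14. It rose by 0.75 ± 0.12 in H460 (H1299 -0.12 ± 0.12); it was picked after its values were seen.

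In the repair and metabolism group, 15 of 28 rose in H460 (53.6%, against 2.99% of all genes) and 12 had a higher change there (42.9%, against 3.21%). GDF15 encodes a secreted stress cytokine. In H460 it was 6.62 to 7.09 (median 6.71) at 0 h and 8.30, 9.16 and 8.17 at 4 h, and in H1299 4.67 to 5.47 (median 5.23) and then 4.87, 5.75 and 4.94. The H460 arrays did not overlap, whereas the H1299 arrays overlapped. Its line difference of 1.75 ± 0.25 (adjusted p = 2.6e-05) was the largest positive one named by the rule. TIGAR, a regulator of glycolysis, and SESN1, a stress-induced regulator of mTORC1 signalling, had line differences of 1.47 ± 0.29 and 1.40 ± 0.19. The repair genes POLH (translesion polymerase), DDB2 and XPC (damage recognition) rose in H460 by 1.07, 0.61 and 0.55. RRM2B, the p53-inducible ribonucleotide reductase subunit, did otherwise: it rose in H1299 by 0.75 ± 0.18 and had 0.18 ± 0.18 in H460, with no called difference (-0.57 ± 0.25, adjusted p = 0.16) except without H460 0 h replicate 2 or 4 h replicate 1.

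**Figure D3:**
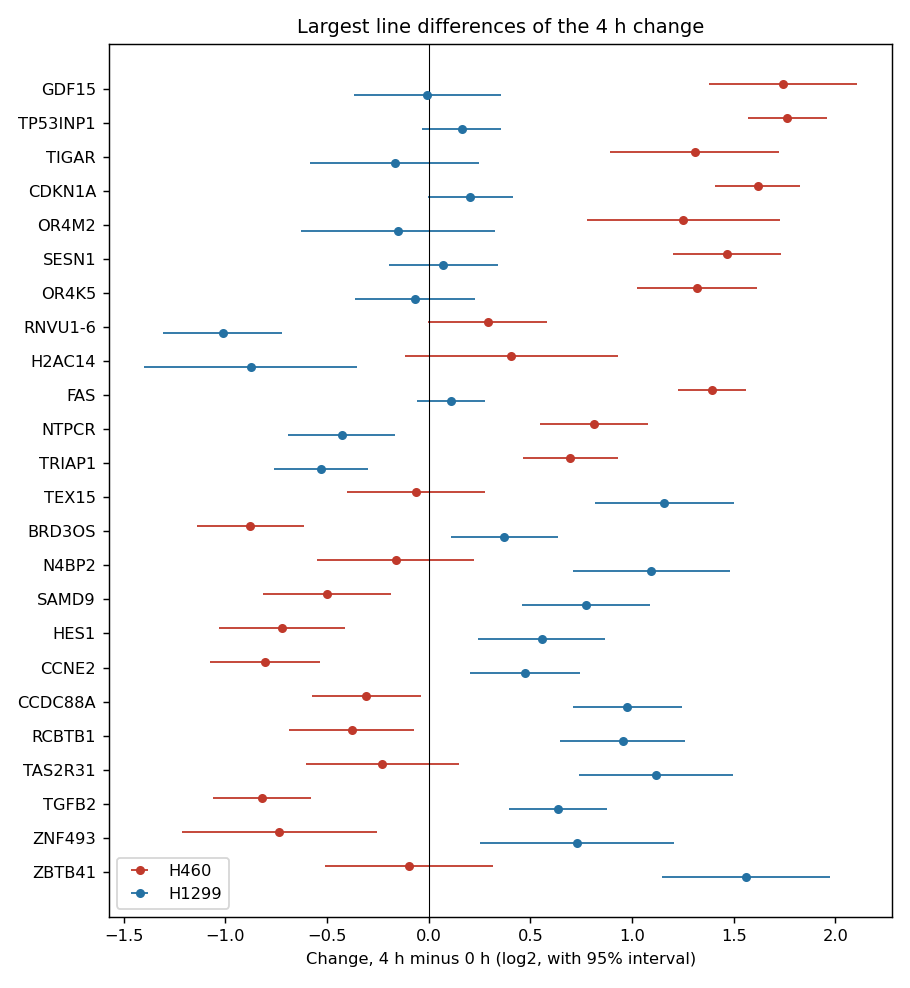
Change at 4 h (log2, points) with 95% intervals in H460 and H1299 for the 12 largest positive and 12 largest negative line differences named by the rule. In GDF15, TP53INP1, CDKN1A, SESN1 and FAS the H460 interval lies above 1 and the H1299 interval includes 0; in ZBTB41 and TEX15 it is the H460 interval that includes 0.

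Promoters were searched for the 10-base p53 consensus decamer in the 250 bases upstream of a single RefSeq start per gene. The assembly was GRCh38.p14, and both strands read the same for this motif. It was found in 726 of 14230 promoters of tested genes (5.10%), in 16 of 157 of genes that rose in H460 only (10.2%), in 18 of 531 that rose in H1299 only (3.39%), in 4 of 39 of the shared rises (10.3%), in 5 of 54 of the p53 list (9.26%) and in 2 of 27 of its members called in H460 (7.41%). No member of the p53 list was among the 16. A match describes letters and is not a binding site, and known p53 elements of many targets lie outside this window. Of the list members called in H460, RPS27L, a ribosomal protein homologue, and AEN, an apoptosis-enhancing nuclease, had a match. They rose there by 0.67 ± 0.19 and 0.44 ± 0.11, with line differences that were not called (adjusted p = 0.063 and 0.098). The RPS27L rise was lost without H460 0 h replicate 1 or 5 or 4 h replicate 2 or 3, and the AEN rise without H460 4 h replicate 2; the RPS27L difference was called without H460 0 h replicate 6, H460 4 h replicate 1 or H1299 0 h replicate 2, and the AEN difference without the last. PLK2 and ACTA2 had a match as well. Of RPS27L, AEN, PLK2 and ACTA2, only the last was among the 16 genes that rose in H460 only. The stretches are shown because they hold the motif in genes described here, with the matched 10 bases in capitals, for RPS27L at chr15:63157502-63157561 (minus strand), AEN at chr15:88621281-88621339 (plus), PLK2 at chr5:58460184-58460243 (minus) and ACTA2 at chr10:88991522-88991581 (minus).
RPS27L: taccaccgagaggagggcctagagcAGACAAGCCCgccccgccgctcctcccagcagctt
AEN: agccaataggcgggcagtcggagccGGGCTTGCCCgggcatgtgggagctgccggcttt
PLK2: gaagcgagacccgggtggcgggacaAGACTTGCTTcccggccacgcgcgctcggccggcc
ACTA2: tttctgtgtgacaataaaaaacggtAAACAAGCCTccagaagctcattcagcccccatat

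Opposite changes were led by TGFB2, which encodes a secreted growth factor. In H460 it was 9.01 to 9.77 (median 9.14) at 0 h and 8.60, 8.23 and 8.42 at 4 h. In H1299 it was 6.46 to 7.08 (median 6.94) at 0 h and 7.38, 7.55 and 7.66 at 4 h. The 4 h arrays lay wholly below the 0 h arrays in H460 and wholly above them in H1299. The changes were -0.82 ± 0.12 and 0.64 ± 0.12, and the line difference was -1.46 ± 0.17 (adjusted p = 4e-07). SKIL, a repressor that TGF-beta signalling induces, rose in H1299 by 0.99 ± 0.13 and changed by -0.18 ± 0.13 in H460. Of the 17 measured TGF-beta and BMP genes, 1 had a higher and 2 a lower line difference (5.88% and 11.8%, against 3.21% and 5.33% of all genes). In H1299, 4 rose (23.5%, against 6.81%) and 2 fell, and the 4 became 2 without H1299 0 h replicate 3 or 4 or any H1299 4 h array and the falls 1 without H1299 4 h replicate 1 or 2. The higher one was ID2, whose call was lost without H460 0 h replicate 4, H460 4 h replicate 2 or 3 or H1299 4 h replicate 1 or 3. Without H460 0 h replicate 4 the lower ones numbered 4, and without H460 0 h replicate 6 and 4 h replicate 1 the higher ones numbered 2 and 3.

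HES1, a Notch-responsive repressor, and CCNE2, the cyclin E2 of S phase entry, showed the same pattern. HES1 changed by -0.72 ± 0.15 in H460 and by 0.56 ± 0.15 in H1299. CCNE2 was 7.6 to 8.06 (median 7.73) at 0 h and 7.15, 6.79 and 7.0 at 4 h in H460, and 7.91 to 8.45 (median 8.23) and then 8.78, 8.60 and 8.69 in H1299. Its changes were -0.80 ± 0.13 and 0.48 ± 0.13. The line differences, both -1.28, were called under every setting run, but the H1299 rises were not: that of HES1 was lost without H1299 4 h replicate 2 or 3, and that of CCNE2 without replicate 1 or 3. FAM111B, a replication-linked protease, fell by 0.51 ± 0.10 in H460 and rose by 0.60 ± 0.10 in H1299, and ARAP2, a GTPase-activating protein, fell by 0.52 ± 0.12 (not called without H460 4 h replicate 3) and rose by 0.53 ± 0.12. NTPCR, a nucleoside triphosphatase, moved the other way, up by 0.81 ± 0.13 in H460 and down in H1299 (-0.43 ± 0.13), as did NDUFB6 of respiratory complex I (0.54 ± 0.16 and -0.60 ± 0.16). The NTPCR call in H1299 was lost without H1299 0 h replicate 2 or any of its 4 h arrays, and the NDUFB6 call in H460 without 5 single arrays (H460 0 h replicates 1, 4 and 5 and 4 h replicates 2 and 3) and in H1299 without 4 h replicate 2 or 3.

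The cell-cycle lists had called members in both directions. Of 47 G1/S and replication genes, 2 had a higher and 8 a lower line difference (4.26% and 17%, against 3.21% and 5.33% of all genes), with a median of -0.10. In H460, 6 fell (12.8%, against 3.76%) and 1 rose (2.13%, against 2.99%). UHRF1, POLE and POLA1, which serve DNA methylation inheritance and replication, had differences of -0.61, -0.55 and -0.61 that came with rises in H1299 of 0.38, 0.36 and 0.46. TYMS, thymidylate synthase, had the opposite sign, with a rise of 0.29 ± 0.07 in H460, not called without H460 4 h replicate 2. The UHRF1 rise was lost without H1299 4 h replicate 1 or 2, the POLE rise without replicate 1 and the POLA1 difference without H460 4 h replicate 2. The 8 became 5 without H460 4 h replicate 2 and 4 without H1299 4 h replicate 2, the 2 became 1 without either of these and 4 without H460 4 h replicate 1, and the 6 H460 falls became 3 without H460 4 h replicate 3. Of 44 G2 and mitosis genes, 3 were higher and 5 lower (6.82% and 11.4%). In H1299, 8 of them rose (18.2%, against 6.81% of all genes) and 3 fell (6.82%, against 2.59%). The 8 became 3 and 5 without H1299 4 h replicates 1 and 2, and the 3 falls 0, 1 and 1 without H1299 4 h replicates 1, 2 and 3. UBE2C, which feeds the anaphase-promoting complex, rose in H460 by 0.40 ± 0.08, and ECT2, a cytokinesis exchange factor, went opposite ways (-0.43 ± 0.11 and 0.42 ± 0.11). The 5 ranged from 2, without H460 4 h replicate 2, to 9, without H460 4 h replicate 1; it was 8 without 0 h replicate 2 of H460, and 3 when 0 h replicate 3 of H460, 0 h replicate 2 of H1299 or any H1299 4 h array was left out. The 3 was 5 without H460 0 h replicate 6. The ECT2 calls were lost in H460 without 4 h replicate 2 and in H1299 without 4 h replicate 1.

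DNA break repair and checkpoint genes moved mostly in H1299. Of 48, 17 rose there (35.4%, against 6.81% of all genes) and 2 rose in H460 (4.17%, against 2.99%). The line difference was lower for 17 (35.4%, against 5.33%) and higher for 1, RAD51C (2.08%, against 3.21%), with a median of -0.32. ATM, the apical break-sensing kinase, was 6.92 to 7.64 (median 7.47) at 0 h and 8.40, 8.23 and 8.16 at 4 h in H1299, and 6.52 to 7.24 (median 6.93) and then 7.01, 6.58 and 6.87 in H460. The H1299 arrays separated and the H460 arrays overlapped. ATM rose by 0.85 ± 0.14 in H1299, a 1.81-fold change, against -0.05 ± 0.14 in H460, and the line difference was -0.90 ± 0.19 (adjusted p = 0.0027). ATR, the kinase of replication stress, rose by 0.64 ± 0.10 in H1299 (H460 0.03 ± 0.10), the helicase gene BRIP1 by 0.79 ± 0.14 (H460 -0.30 ± 0.14), PRKDC, the catalytic subunit of DNA-dependent protein kinase, by 0.47 ± 0.11 and GEN1, a Holliday junction resolvase, by 0.78 ± 0.15. ATR and GEN1 were picked from the list after their values were seen. BARD1, the partner of BRCA1, had its called change in H460 (-0.47 ± 0.11), lost without H460 4 h replicate 3. The count of 17 lower differences depended on single arrays, at 10 and 11 without H460 4 h replicates 2 and 3 and 9 and 10 without H1299 4 h replicates 1 and 3. It was 9 after median centring and 7 with 0 h replicates 4 to 6 only. The 17 rises in H1299 numbered 10 and 11 without H1299 4 h replicates 1 and 3, 8 with 0 h replicates 4 to 6 only and 26 with array weights. Without 8 single arrays RAD51C had no called line difference. The 2 rises in H460 numbered 1 without H460 0 h replicate 1 or 4 h replicate 2 or 3.

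**Figure D4:**
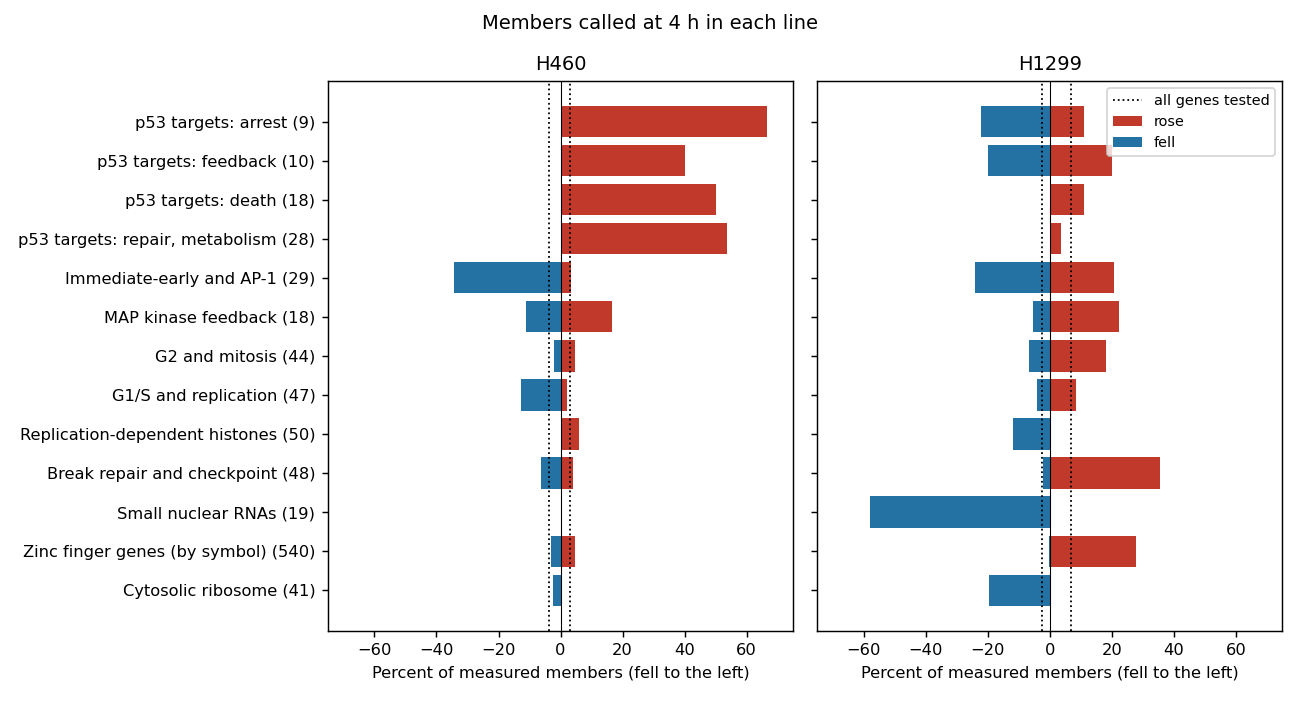
Share of the measured members (number in brackets) of 13 gene groups called up (right, red) or down (left, blue) at 4 h in H460 and H1299, with dotted lines at the share over all genes tested. The 4 p53 groups reach 40.0% to 66.7% up in H460, and in H1299 35.4% of the break repair group rise and 57.9% of the small nuclear RNAs fall.

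Zinc finger genes, a family of DNA-binding repressors and activators recognised here by symbol and looked at after values were seen, also rose mainly in H1299: 150 of 540 rose there (27.8%, against 6.81% of all genes) and 2 fell. In H460, 26 rose (4.81%, against 2.99%) and 17 fell (3.15%, against 3.76%). The line difference was lower for 55 (10.2%, against 5.33%) and higher for 5 (0.926%, against 3.21%). The 55 became 21 with 0 h replicates 4 to 6 only and 101 with array weights, and the 150 became 92 with 0 h replicates 4 to 6 only. Leaving out H1299 4 h replicate 1 gave 92 rises, 33 lower and 2 higher differences, leaving out replicate 2 gave 34 lower and 2 higher, and leaving out replicate 3 gave 3 higher. The falls in H460 numbered 10, 8 and 5 without H460 0 h replicate 1 and 4 h replicates 1 and 3, and the rises 17 without the last. The H1299 falls were 1 without 8 of the single arrays and 4 without H1299 0 h replicate 6. ZBTB41, of a related family, had the largest negative difference named, -1.66 ± 0.29 (adjusted p = 0.00032). It was 6.42 to 6.95 (median 6.76) at 0 h and 8.21, 8.41 and 8.25 at 4 h in H1299, whereas H460 started at 9.40 to 10.37 (median 9.67) and had 10.02, 9.29 and 9.72 at 4 h. The H460 level was above that of H1299 at both times. N4BP2 and CCDC88A, an endonuclease-domain protein and an actin-binding scaffold, rose in H1299 by 1.09 ± 0.19 and 0.98 ± 0.13, and TEX15 and the bitter taste receptor TAS2R31 by 1.16 ± 0.17 and 1.12 ± 0.19, the latter pair from low levels (0 h means 5.66 and 4.63).

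Small nuclear RNAs, the RNA parts of spliceosomes, fell in H1299: 11 of 19 measured (57.9%, against 2.59% of all genes), with 0 rising, and 0 called in H460 (limma; at an unadjusted p under 0.05, 13 fell in H1299, and 1 rose and 2 fell in H460). The median change was -0.64 in H1299 and -0.04 in H460. The variant U1 gene RNVU1-15 was 7.64 to 8.09 (median 7.98) at 0 h and 6.76, 6.46 and 6.71 at 4 h in H1299, against 7.97 to 8.49 (median 8.23) and 8.02, 8.16 and 8.04 in H460. All H1299 4 h arrays were below every 0 h array. The H1299 change was -1.30 ± 0.14 and the line difference 1.12 ± 0.19 (adjusted p = 0.00032). RNVU1-6 (line difference 1.30 ± 0.20), RNVU1-3 and RNU11, of the minor spliceosome, moved alike in H1299, by -1.01, -1.04 and -0.95. The variant U1 genes are near copies, and a probe set may read several of them. The number of higher line differences, 8 of 19, lay between 7 and 9 without any 1 array. It was 5 with 0 h replicates 4 to 6 only. With dim genes left out 12 members remained, of which 5 had a higher line difference and 7 fell in H1299. The H1299 falls also numbered 7 without H1299 4 h replicate 1. These RNAs are short and mostly lack poly(A) tails, so their signal also depends on the extraction and labelling, whose part was not tested.

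Replication-dependent histone genes had 8 higher and 0 lower line differences of 50 (16% higher, against 3.21% of all genes; limma, 20 and 0 at an unadjusted p under 0.05). In H1299, 6 fell and 0 rose (12% fell, against 2.59%; limma, 16 and 1 at an unadjusted p under 0.05), and in H460, 3 rose (6%, against 2.99%). H4C14 had 8.56 to 8.98 (median 8.82) at 0 h and 8.12, 8.17 and 8.05 at 4 h in H1299, and 10.15 to 10.59 (median 10.30) and then 10.42, 11.05 and 10.58 in H460. The H1299 arrays separated and the H460 arrays overlapped. Its change was -0.69 ± 0.14 in H1299 and its line difference 1.05 ± 0.20. H1-3, a linker histone, changed by -0.56 ± 0.10 in H1299. With dim genes left out 40 histone genes remained, of which 9 had a higher line difference and 5 fell in H1299. The part of extraction and labelling in the histone signal was not tested. Of 41 cytosolic ribosomal protein genes, 9 had a higher line difference (22%) and 8 fell in H1299 (19.5%), among them RPL24 (-0.45 ± 0.11), RPS13 (-0.48 ± 0.12) and RPS14 (-0.43 ± 0.09). Symbol families chosen after values were seen gave 16 higher differences of 92 respiratory chain genes and 13 of 74 mitochondrial ribosomal genes (17.6%). These counts moved with the settings. With 0 h replicates 4 to 6 only, the higher differences numbered 4 for histones, 3 for ribosomal proteins, 2 for the respiratory chain and 4 for mitochondrial ribosomes. With array weights they numbered 19, 15, 39 and 24, and without the 4 arrays of narrow spread 20, 15, 34 and 19. The 6 histone falls in H1299 became 26 with array weights, 15 without the arrays of narrow spread and 3 with 0 h replicates 4 to 6 only, and the 8 falls of ribosomal proteins 26 with array weights. They also leaned on single arrays. Without H460 4 h replicate 2 the higher differences numbered 4 for histones, 2 for ribosomal proteins, 7 for the respiratory chain and 3 for mitochondrial ribosomes. Without H1299 4 h replicates 1, 2 and 3 they were 4, 4 and 5 for ribosomal proteins, 9, 10 and 8 for the respiratory chain and 7, 8 and 8 for mitochondrial ribosomes; for histones they were 5 without replicate 2 or 3. Without H460 0 h replicate 6 they rose to 14, 29 and 22 for the last 3 groups. The H1299 falls numbered 2, 3 and 3 for histones and 5 each for ribosomal proteins without H1299 4 h replicates 1, 2 and 3, and the 3 histone rises in H460 numbered 0 when 4 h replicate 2 of that line was left out and 6 without its 0 h replicate 6. The RPS14 difference was not called without H460 4 h replicate 2.

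**Figure D5:**
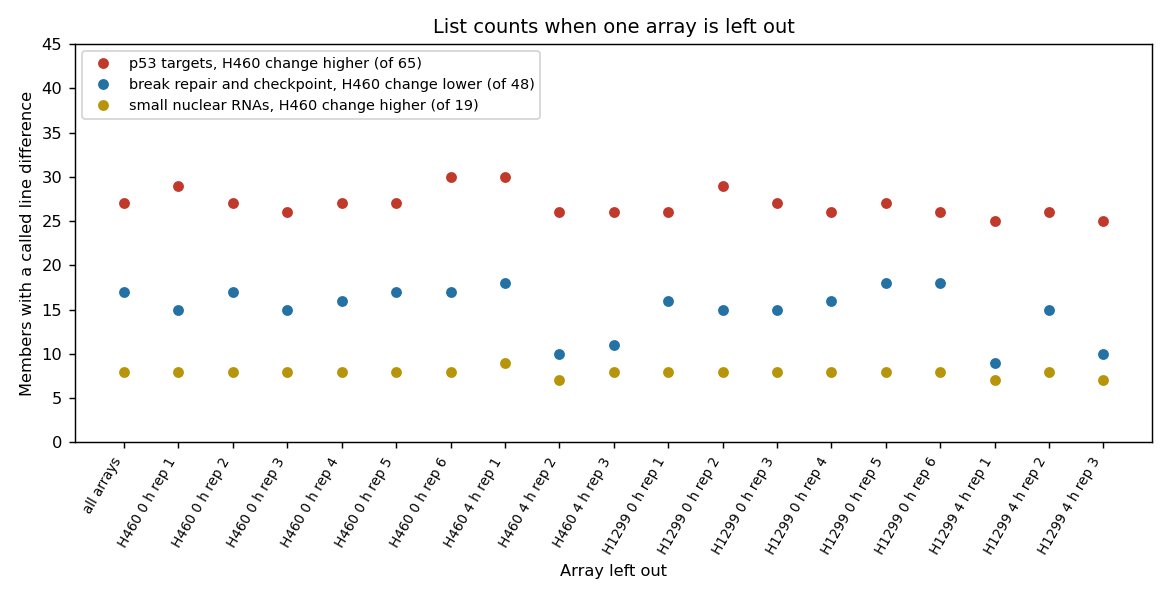
Number of list members with a called line difference with all arrays and with each of the 18 arrays left out. The p53 count stays between 25 and 30 and the small nuclear RNA count between 7 and 9, while the break repair count drops from 17 to 9, 10 or 11 without 4 of the 4 h arrays.

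Immediate-early and AP-1 genes encode transcription factors and signals that mitogens and stress switch on within minutes. Of 29, 8 had a lower and 2 a higher line difference (27.6% and 6.90%, against 5.33% and 3.21% of all genes). In H460, 10 fell (34.5%, against 3.76%) and 1 rose, and in H1299, 7 fell (24.1%, against 2.59%) and 6 rose (20.7%, against 6.81%). JUN, the central AP-1 subunit, was 7.46 to 7.67 (median 7.59) at 0 h and 6.38, 6.74 and 6.42 at 4 h in H460, and 8.05 to 8.41 (median 8.19) and then 8.04, 7.85 and 7.95 in H1299. The 4 h arrays were below the 0 h arrays in both lines. JUN changed by -1.06 ± 0.11 in H460 and -0.27 ± 0.11 in H1299 (adjusted p = 0.12; called after quantile normalization and with array weights), with a difference of -0.78 ± 0.16. KLF4 and KLF2, zinc finger factors of growth control, fell by 0.60 and 0.57 in H460. IER2 rose in H1299 by 0.51 ± 0.09, and CCN1, a matricellular protein, changed there by -0.88 ± 0.11. The H1299 falls numbered 3, 4 and 3 without H1299 4 h replicates 1, 2 and 3, and the H460 rise was lost without H460 0 h replicate 2 or 4 or 4 h replicate 1 or 2.

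The feedback inhibitors of MAP kinase signalling differed in which member rose. DUSP1, a nuclear MAP kinase phosphatase, rose in H460 by 0.62 ± 0.09 and changed by -0.22 ± 0.09 in H1299. DUSP6, which acts on ERK in the cytoplasm, was 8.11 to 8.40 (median 8.23) at 0 h and 9.11, 9.12 and 9.03 at 4 h in H1299, and 7.16 to 7.77 (median 7.42) and then 7.52, 7.92 and 7.68 in H460. The H1299 arrays separated and the H460 arrays overlapped. DUSP6 rose in H1299 by 0.86 ± 0.09 against 0.28 ± 0.09 in H460 (adjusted p = 0.054). SPRY4, an inhibitor of receptor signalling, rose in both, by 1.29 ± 0.13 in H1299 and 0.50 ± 0.13 in H460, the latter not called without H460 4 h replicate 1 or 3. Of the 18 genes, 1 was higher (5.56%, against 3.21% of all genes) and 4 were lower (22.2%, against 5.33%). The 4 became 2 without H460 4 h replicate 3 or H1299 4 h replicate 2, and the 1 became 2 without H460 0 h replicate 6.

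Besides MDM2 and SPRY4, the genes that went the same way by unequal amounts were KLF11, ARRDC3, ZNF79, ZNF767P and WASHC1. KLF11, a repressor in the TGF-beta pathway, changed by -1.32 ± 0.09 in H460 and -0.49 ± 0.09 in H1299. ARRDC3, an arrestin-domain adaptor, rose by 0.40 ± 0.11 in H460 and 1.31 ± 0.11 in H1299. The H460 rise of ARRDC3 was not called without H460 0 h replicate 1 or 5 or 4 h replicate 1 or 3, and the differences of ZNF79, ZNF767P and WASHC1 were lost without 3, 6 and 13 of the 18 arrays.

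Shared rises were led by RSRP1, a protein rich in arginine and serine. It was 5.48 to 6.39 (median 5.97) at 0 h and 7.23, 6.80 and 7.0 at 4 h in H460, and 6.49 to 7.21 (median 6.97) and then 7.83, 7.76 and 7.59 in H1299. The arrays separated in both lines. The changes were 1.09 ± 0.14 and 0.80 ± 0.14, and the difference of 0.29 ± 0.20 had a 95% interval of -0.12 to 0.70, which reaches beyond a 1.5-fold difference. CLK4, a kinase of splicing factors, rose by 0.72 ± 0.15 and 0.94 ± 0.15, and ZNF234 by 0.71 ± 0.12 and 0.87 ± 0.12, the latter with an interval of the difference of -0.49 to 0.17. HCG8, SNORD13P2 and TAS2R4 rose in both as well; SNORD13P2 lost its H460 call without H460 0 h replicate 1 or any H460 4 h array, and TAS2R4 its H460 call without H460 0 h replicate 1 or 4 h replicate 1 and its H1299 call without H1299 4 h replicate 1.

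Shared falls included PPP1R15A, which encodes GADD34, the phosphatase subunit that restarts translation after stress. It was 7.01 to 7.39 (median 7.21) at 0 h and 6.40, 6.83 and 6.56 at 4 h in H460, and 7.5 to 7.74 (median 7.68) and then 6.81, 6.78 and 6.68 in H1299. All 4 h arrays lay below the 0 h arrays of their line. The changes were -0.62 ± 0.10 and -0.89 ± 0.10. CITED2, a transcriptional co-regulator, changed by -0.53 ± 0.09 and -0.80 ± 0.09, and ANKRD1, a target of mechanical and YAP signalling, by -0.65 ± 0.13 and -0.73 ± 0.13. SNORD45A, SNORA3B and UBALD2 fell in both lines too. UBALD2 had a difference of 0.46 ± 0.16 (adjusted p = 0.068) that was called in 5 other settings and without H460 0 h replicate 5 or 6 or H1299 0 h replicate 2, and its H460 fall was lost without 5 single H460 arrays (0 h replicates 1, 5 and 6 and 4 h replicates 1 and 3). The SNORD45A call in H460 was lost without 4 h replicate 1 or 3, and that of SNORA3B in H1299 without 4 h replicate 2 or 3.

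Other stress programmes gave called line differences in scattered members. Of 24 NF-kB genes 1 had a higher and 7 a lower line difference, of 36 interferon-stimulated genes 1 and 4, of 37 ATF4 and unfolded protein genes 6 and 1, of 27 NRF2 genes 3 and 2, of 21 cholesterol synthesis genes 2 and 3 and of 22 hypoxia genes 1 and 2. Over all genes 3.21% were higher and 5.33% lower. Farthest from these shares were the lower NF-kB genes (29.2%) and the higher ATF4 genes (16.2%), whereas the other counts were of 1 to 4 genes each, with shares from 2.70% to 14.3%. LIF, a cytokine of the interleukin-6 family, rose in H1299 by 0.83 ± 0.10 from a low level (4.03) and not in H460 (0.14 ± 0.10), where it was higher throughout (7.75 at 0 h). HMOX1, heme oxygenase, rose in H460 by 0.84 ± 0.13 with a difference of 1.06 ± 0.18, and CEBPB, a stress-induced transcription factor, by 0.59 ± 0.10. ATF4 itself changed in H1299 by -0.44 ± 0.07. Within each line, 5 of the 21 cholesterol synthesis genes rose (23.8%, against 2.99% of all genes in H460 and 6.81% in H1299) and 0 fell. Of the 22 hypoxia genes, 4 fell in H460 (18.2%, against 3.76%) and 3 in H1299 (13.6%, against 2.59%), and 0 rose. The cholesterol rises in H460 became 3 without H460 4 h replicate 1 or 2, and the hypoxia falls there 1 without replicate 3. STARD4, a cholesterol carrier, rose in H1299 by 0.74 ± 0.11, and the desaturase FADS2 in H460 by 0.50 ± 0.08. BNIP3, a mitophagy receptor, changed in H1299 by -0.51 ± 0.11. The larger counts leaned on single arrays: 7 became 4 without H460 4 h replicate 2 and 3 without H1299 4 h replicate 1, the interferon 4 became 2 without H460 4 h replicate 2 or H1299 4 h replicate 3, and the ATF4 6 became 3 without H1299 4 h replicate 1 or 3. The 1 higher NF-kB gene was lost without 9 of the 18 arrays, and the 1 lower ATF4 gene became 2 without H460 0 h replicates 1 and 2, H460 4 h replicate 1 or H1299 0 h replicates 2 and 6, and 3 without H460 0 h replicate 5. The higher interferon gene was lost without H1299 4 h replicate 1. The lower counts fell to 1 for NRF2 without H460 4 h replicate 2 or H1299 4 h replicate 1 or 3, for cholesterol synthesis without H460 4 h replicate 3 and for hypoxia without H460 4 h replicate 3 or H1299 4 h replicate 1, and the higher cholesterol count to 1 without H460 4 h replicate 2.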

How the data were processed

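The deposited values are log2 intensities of 42 arrays, 1 row per probe set. How the authors normalized them is not given in the sources used here, and no detection calls came with them. They ran from 1.45 to 14.2, and 0 pairs of arrays were identical. The probe table gave a single symbol to 19158 of 32321 rows and several to 1388, and it did not list 11775; keeping the row with the highest mean per gene left out 754. Of the 18404 symbols, 18376 were matched in RefSeq. Some genes are not analysed here.

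A limma fit (limma 3.58.1, R 4.3.3) with 1 mean for each of 12 groups of line and time over all 42 arrays (30 residual degrees of freedom) gave the contrasts, with eBayes, trend and Benjamini-Hochberg adjustment over all genes, two-sided, threshold 0.05. The other time points thus add only to the spread. Titles name the arrays biological replicates, with no word on separate cultures; p-values measure the spread between them. Their number limits the precision.

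The members, gene lists (23, with 646 genes, 582 measured) and tests were chosen with earlier results of these data known. Named by rule were CDKN1A, MDM2, the 12 largest called differences each way whose 4 h and 0 h arrays do not overlap in at least 1 line (microRNA and unnamed loci left out), the 6 largest shared rises and falls, up to 6 opposite genes, and up to 6 members per list by smallest p. Genes named beyond this were chosen after their values were seen, among them ATR, GEN1, ACTA2, BAX, BBC3, TNFRSF10B, RRM2B, XPC, AEN, RPS27L and the genes changed the same way unequally.

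In a test on simulated data over the 18404 genes, the line difference recovered 85 of 100 genes changed by 1 and 22 of 100 changed by 0.5 (log2), all with the right sign, with 5 false calls among 112. The simulated noise was drawn separately for each gene and array, without array-wide shifts or changes of width. The 5 false calls thus do not measure errors of that kind. Settings tried are in the closing section. Replicate numbers did not pair the arrays. Promoter sequences are RefSeq's, with 250 upstream bases searched.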

Additional observations from a re-analysis of the deposited data

Results flagged for a closer look

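The line difference of the 4 h change was called for 1572 genes, each by a test of the difference between the lines itself. The other entries are single 0 h arrays that stood apart from the rest of their group of 6 by a gap test; 328 groups were tested and 32 met it, where chance gives about 1 in 20.

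H1299 0 h replicate 2 had the narrowest distribution of its group, with an interquartile range of 3.24. It stood apart in TRIAP1 (9.35), TGFB2 (6.46), PLK2 (8.34), CCN1 (9.99), ERRFI1 (10.32), KIF11 (8.29), POLE (8.21), DTX3L (6.21), HMOX1 (6.53), SREBF2 (7.55), KDM3A (7.91), RNVU1-15 (7.64), RNVU1-4 (4.55), AEN (6.91) and CCNG1 (9.48). H460 0 h replicate 1 stood apart in TIGAR (6.33), NTPCR (7.42), TGFB2 (9.77), ANKRD1 (6.18), RPL24 (10.72), RPS25 (11.17), RPL30 (11.03) and KRT18 (11.75). H460 0 h replicate 6 did so in KLF2 (8.59) and DUSP1 (9.65), and replicate 5 in ZNF767P (5.46). H1299 0 h replicate 5 did so in FAM111B (8.33) and KLF2 (7.95), replicate 6 in CEBPB (6.55), and replicate 1 in RPS14 (11.85) and EPCAM (3.40). The part of array width in these values was not tested.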

How the results depend on the processing

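The called line differences numbered 928 in a fit of the 18 arrays alone, 604 with 0 h replicates 4 to 6 only and 3121 with array weights; without single arrays they ran from 931 to 1846. Genes called in H460 numbered 638, 565 and 2098 in those 3 settings, 2220 with array width as a covariate and 2068 without the narrow arrays (509 to 1797 without single arrays). Genes called in H1299 numbered 930 with 0 h replicates 4 to 6 and 4136 with array weights (870 to 1958). Genes in H460 only numbered 174 in the 18 arrays, 155 with 0 h replicates 4 to 6, 832 with weights, 754 with width and 636 without the narrow arrays (184 to 531), and those in H1299 only 511, 301 and 1723 in the first 3 (427 to 937). Opposite changes numbered 14, 13, 201, 123 and 121 in the same order, and 33 with 0 h replicates 1 to 3 (17 to 70). Shared changes numbered 43, 36, 239, 121 and 125 (45 to 97), and same-direction unequal changes 2, 2, 30 and 12 in the first 4, and 11 after quantile normalization (3 to 8). Genes that differed at 0 h ran from 10342 to 12031 without single arrays. Of the genes called in H460 only, 162 to 339 kept that call without any 1 array, and 406 to 788 of those in H1299 only.

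The replicate block (the replicate number as a term) gave 1323 called line differences, 4 unequal, 48 shared and 6001 genes differing at 0 h. Its median line difference (-0.0297) was that of the setting with 0 h replicates 1 to 3 only. So were its median changes in H460 (-0.0291) and H1299 (-0.021). The later 0 h replicates have no 4 h array of the same number, so the block did not test the choice of baseline separately. With replicate terms in the fit, the 6001 need not measure the same level difference as the main count, and the 2 were not compared. The correlations of same-numbered arrays ran from -0.0848 to 0.165, so the numbers were not taken to pair the arrays. No named gene's called change turned its sign in any setting. The cause of these moves was not tested.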

Other observations

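Olfactory receptor genes, which encode odorant sensors, were looked at as a family after values were seen. Of 360, 43 rose in H460 (11.9%, against 2.99% of all genes) and 1 in H1299 (0.278%, against 6.81%). A higher line difference was called for 11 (3.06%, against 3.21%) and a lower one for 0 (limma; 52 and 2 at an unadjusted p under 0.05). OR4K5 had a mean of 3.02 at 0 h and 4.33 at 4 h in H460, against 2.98 and 2.91 in H1299. Such levels are near the lower end of the values. Leaving out the dimmest 33.3% of genes kept 11 of the 360, of which 2 had a higher line difference and 5 rose in H460. Without H460 4 h replicates 1 and 3 the H460 rises numbered 25 and 15, and without the latter or H1299 4 h replicate 1 or 2 the higher differences numbered 5, 6 and 6; they were 20 and 17 without H460 0 h replicate 5 and 4 h replicate 2.

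Of 173 microRNA genes, 0 had a higher and 6 a lower line difference, 3.47% against 5.33% of all genes, so the lower calls were no more frequent here than the background (limma; 5 and 13 at an unadjusted p under 0.05). MIRLET7A2 had 0.97 in H1299 and -0.34 in H460 (line difference -1.31 ± 0.21, adjusted p = 0.000139), and MIR29A 0.69 and -0.48 (-1.17 ± 0.24, adjusted p = 0.00149). Whether the probe sets read precursor or mature RNA is not given in the sources used here. Their main mature strands in RefSeq, with the seed (bases 2 to 8) in capitals, are shown because both genes had the largest such differences.
let-7a-5p: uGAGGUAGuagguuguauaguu
miR-29a-3p: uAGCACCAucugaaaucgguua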
